A study of Mus musculus with 12 samples.

Results

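The transcripts of 10 inflammatory cytokines and keratinocyte alarmins were followed in mouse skin: *Il1a*, *Il1b*, *Il1rn*, *Il18*, *Il33*, *Il36a*, *Il36g*, *Tnf*, *Il6* and *Tslp*. They are a fixed list of named genes, set with earlier results of these data known, among the 52636 genes of the count table, and all 10 passed the filter on low counts. Skin of C57BL/6 mice aged 3 months was sequenced on day 14, with 3 libraries in each of 4 groups. WT mice, of the loxp/wt or loxp/loxp *Cdc42* genotype without Cre, and *Cdc42* KO mice, of the *Cdc42* flox/flox genotype with a Cre driven by the K5 promoter, had shaved dorsal skin covered with vehicle alone, which was normal saline with HPMC. The other 2 groups were mice of these genotypes to which zinc oxide nanoparticles (ZnO NPs) in that vehicle were applied continuously. The K5 promoter restricts the deletion to keratinocytes and the cells they give rise to, while the RNA came from whole skin, in which fewer cells of a type and less RNA per cell cannot be told apart.

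Cytokines of the interleukin-1 family are the first alarm of the epidermis. Keratinocytes store IL-1α and IL-18 and make the IL-36 ligands late in their differentiation, so that damage to the barrier releases them, while IL-1β comes mainly from myeloid cells and, like IL-18, needs cleavage by caspase-1. IL-33 and TSLP are alarmins that drive type 2 immunity, IL-1 receptor antagonist (*Il1rn*) blocks the IL-1 receptor, and TNF and IL-6 carry the signal to other cells through NF-κB and STAT3.

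Total counts were 21076320 to 28867802 per library, and levels are given in CPM, the counts of a gene relative to its library's total, scaled by the TMM factors of edgeR. *Cdc42* was at 606.1 to 628.4 CPM in the WT libraries and at 415.4 to 464.0 CPM in the KO libraries, but in treated skin it was at 310.7 to 350.1 CPM under the label WT+ZnO NPs and at 313.5 to 453.0 CPM under the label KO+ZnO NPs. The transcript thus went against the label of the first of these treated groups, and both are named here by their label alone. Y-linked transcripts were present in all 3 libraries labelled WT+ZnO NPs, in KO replicate 1 and in KO+ZnO NPs replicate 1, at a summed level of 191.7 CPM or higher, and summed to 0 to 0.0504 CPM in the other 7, which are called without them here by a limit of 10 CPM. The study's methods describe the KO mice as female, which KO replicate 1 and KO+ZnO NPs replicate 1 go against. The sex of the animals and the treatment cannot be told apart in the comparison of WT+ZnO NPs with WT. A covariate for Y-linked transcripts is estimated from the KO and KO+ZnO NPs libraries alone, as only these groups hold both kinds. *Krt5*, which defines basal keratinocytes, was at 1390 CPM or higher in every library.

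Levels of different genes can be compared only per kilobase of exon. On that scale the WT skin held most *Il18*, at 41.0 CPM per kb ± 7.30 (SD, n = 3), and *Il36a*, at 40.3 ± 18.5 CPM per kb, whose libraries overlapped, followed by *Il36g* at 26.3 ± 5.90 CPM per kb. *Il33*, *Il1b*, *Il1rn*, *Il1a* and *Tnf* followed at group means between 13.5 and 4.49 CPM per kb, each overlapping its neighbour in this order. *Tslp* at 1.78 ± 1.02 and *Il6* at 0.390 ± 0.318 CPM per kb were the lowest and overlapped each other, and the steps from *Il36g* to *Il33* and from *Tnf* to *Tslp* were the ones without overlap. KO skin kept *Il36g*, *Il18* and *Il36a* at the top, at 45.2 ± 23.5, 41.2 ± 6.71 and 23.0 ± 10.1 CPM per kb. In the libraries labelled WT+ZnO NPs, *Il36g* and *Il36a* stood seventh and eighth of the 10, at 1.75 ± 0.936 and 1.21 ± 1.47 CPM per kb, with no step in the order free of overlap.

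**Figure D1:**
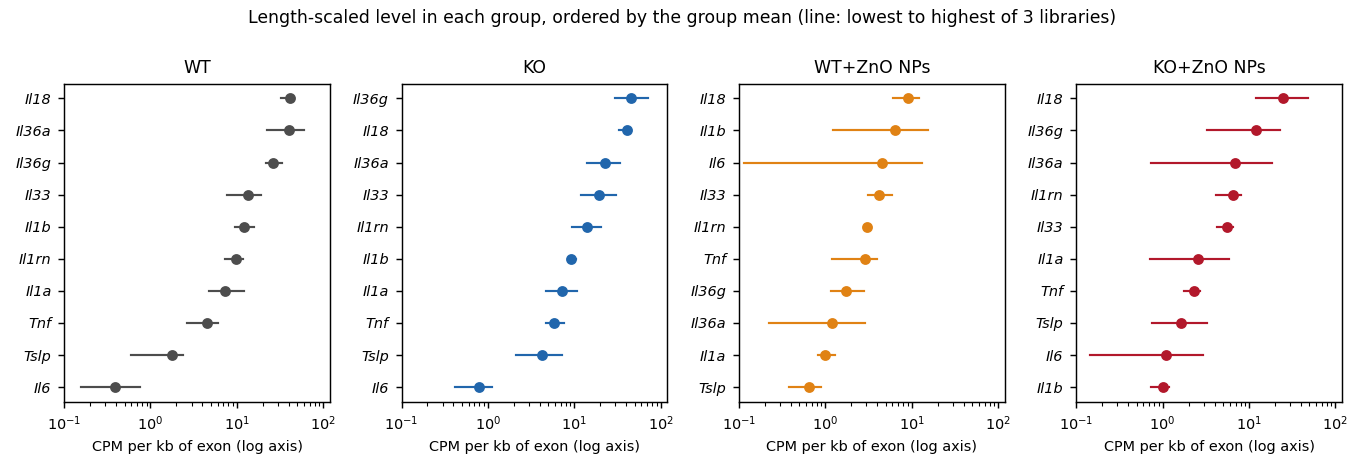
Level of the 10 transcripts per kilobase of exon (log axis) in each group, ordered from the highest to the lowest group mean, with points for the mean and lines from the lowest to the highest of 3 libraries. By group mean, *Il18*, *Il36a* and *Il36g* lead in WT, KO and KO+ZnO NPs, while *Il36g* and *Il36a* are seventh and eighth for WT+ZnO NPs. No step of the KO+ZnO NPs order is free of overlap, and the place of *Il36a* there rests on replicate 1, at 18.7 CPM per kb. In replicates 2 and 3 *Il36a* is at 1.14 and 0.740 CPM per kb, below *Il1rn* at 8.17 and 4.16 CPM per kb.

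The comparisons ask what deletion of *Cdc42* and application of ZnO NPs did to the skin. edgeR's quasi-likelihood test was run on 18822 genes, those with a Benjamini-Hochberg adjusted p under 0.05 were called, and groups are called separate where every library of one lay above every library of the other. Between KO and WT, 0 of the 10 transcripts were called, where 4.61% of all genes tested were called higher and 3.58% lower, 8.18% in all. There 0 had separate groups, against 18.6% higher and 19.9% lower, 38.5% in all. In edgeR's test 0 passed an unadjusted p of 0.05, where 4911 of the 18822 genes did, and DESeq2 called 0, where it called 16.4% of all genes.

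Between WT+ZnO NPs and WT, 6 transcripts fell and 0 rose, against 22.1% of all genes called lower and 20.8% higher, 43% in all, and DESeq2 on all libraries called 7, the added one being *Il6*, higher, where it called 47.5% of all genes. The same 6 had separate groups, against 29.3% lower and 30.1% higher, 59.4% in all. Between KO+ZnO NPs and KO, 3 fell and 0 rose, against 8.09% called lower and 6.57% higher, 14.7% in all, and DESeq2 called 5, adding *Il36g* and *Tnf*, where it called 23.3% of all genes. There 5 had separate groups, all lower, against 17.7% lower and 17% higher, 34.7% in all. Between KO+ZnO NPs and WT+ZnO NPs, *Il36g* was the one member that edgeR called, higher, against 2.13% called higher and 1.16% lower, 3.28% in all. DESeq2 called 4 members there, adding *Il1rn* and *Il18* as higher and *Il1b* as lower, where it called 13% of all genes. There *Il36g* and *Il1rn* were higher and *Il1b* lower with separate groups, against 13% higher and 10.8% lower, 23.7% in all. The median log2 fold change of the members was 0.44, -1.69, -1.44 and 1.23 in these comparisons, beside 0.01, 0.06, 0.01 and 0.04 over all genes tested. The first was 0.21 without WT replicate 3 and 0.07 without KO replicate 2, and the last 0.19 without replicate 1 and 0.61 without replicate 2 of KO+ZnO NPs. The comparisons share libraries and are not independent of each other.

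**Figure D2:**
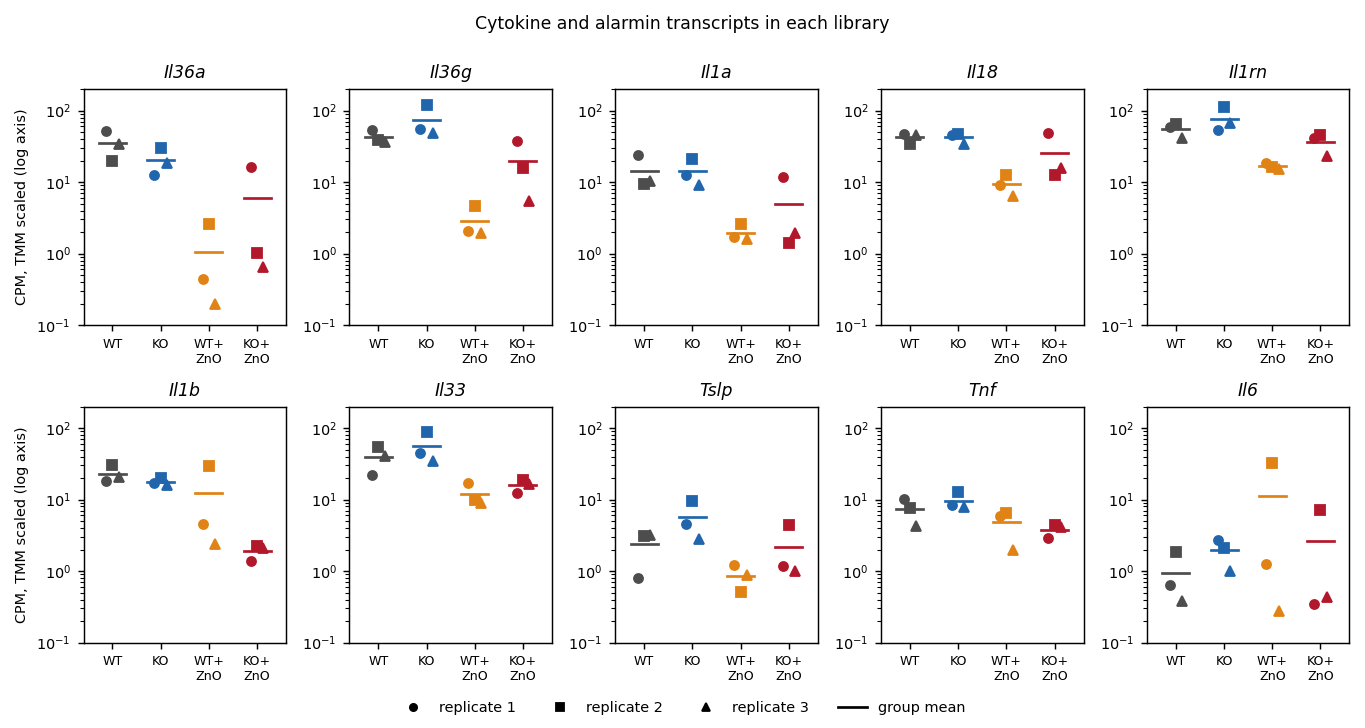
TMM-scaled CPM (log axis) of the 10 transcripts in each of the 12 libraries, by group, with a bar for the group mean; WT+ZnO and KO+ZnO stand for the groups labelled WT+ZnO NPs and KO+ZnO NPs. *Il36a*, *Il36g*, *Il1a* and *Il18* are low in all 3 WT+ZnO libraries and in KO+ZnO replicates 2 and 3, and KO+ZnO replicate 1 lies within or near the range of the KO libraries.

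**Figure D3:**
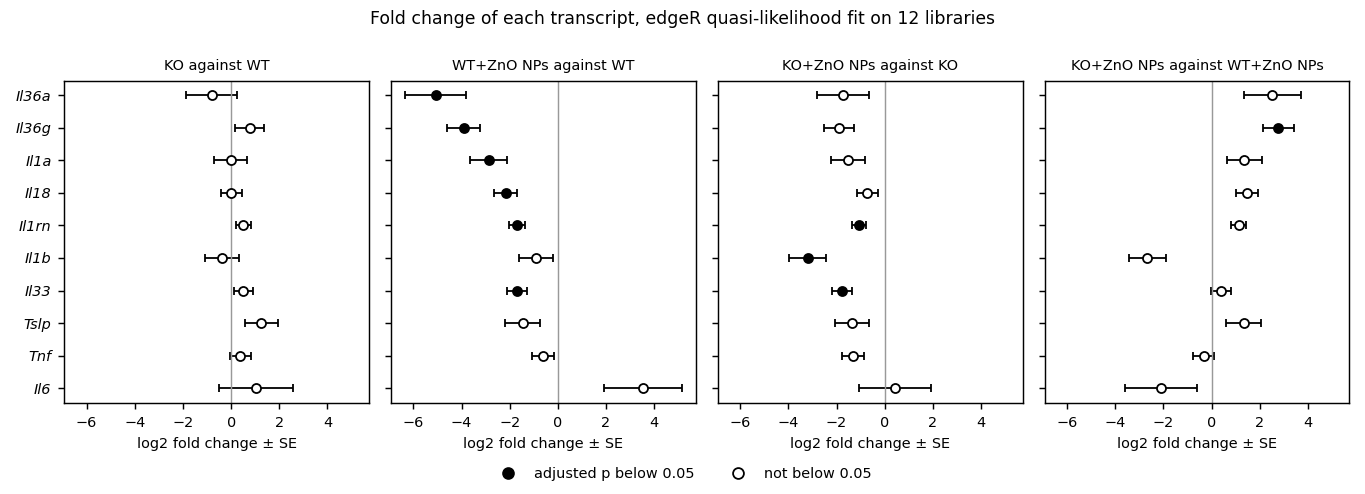
Log2 fold change with its standard error for the 10 transcripts in the 4 comparisons, from one edgeR fit on 12 libraries; filled points have an adjusted p below 0.05. The filled points are 0 for KO against WT, 6 for WT+ZnO NPs against WT, 3 for KO+ZnO NPs against KO and 1 for KO+ZnO NPs against WT+ZnO NPs.

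The IL-36 ligands, agonists of the IL-36 receptor made by differentiated keratinocytes, showed the largest falls of the 10 members in WT+ZnO NPs against WT. *Il36a* (ENSMUSG00000026984, chr2:24215418-24225702, plus strand, GRCm38) was at 52.5, 19.97 and 34.3 CPM in WT and at 12.4, 30.0 and 18.6 CPM in KO. After ZnO NPs it was at 0.440, 2.56 and 0.198 CPM under the label WT+ZnO NPs and at 16.5, 1.01 and 0.653 CPM under the label KO+ZnO NPs. Every WT+ZnO NPs library lay below every WT library, whereas replicate 1 of KO+ZnO NPs lay among the KO libraries and replicates 2 and 3 below them. The log2 fold change was -5.08 ± 1.28 (SE, adjusted p = 0.00940) for WT+ZnO NPs against WT, where the counts behind the treated values were 11, 56 and 5, and -1.74 ± 1.09 (adjusted p = 0.292) for KO+ZnO NPs against KO. Between KO and WT it was -0.81 ± 1.06 (adjusted p = 0.683).

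*Il36g* (ENSMUSG00000044103, chr2:24186476-24193568, plus strand) encodes IL-36γ, an established marker of psoriatic epidermis. Its level was 54.4, 39.2 and 36.3 CPM in WT, 55.4, 119 and 49.0 CPM in KO, 2.04, 4.66 and 1.94 CPM in WT+ZnO NPs and 38.1, 15.7 and 5.40 CPM in KO+ZnO NPs. Neither treated group overlapped its vehicle group, and every KO+ZnO NPs library lay above every WT+ZnO NPs library. It fell in WT+ZnO NPs against WT, with a log2 fold change of -3.92 ± 0.68 (adjusted p = 0.00129). Against KO, the log2 fold change in KO+ZnO NPs was -1.91 ± 0.62 and missed the threshold (adjusted p = 0.0601), which it passed in 6 of 22 alternatives. The rise in KO+ZnO NPs against WT+ZnO NPs was 2.78 ± 0.66 (adjusted p = 0.0490), and this call was lost in 15 of 22 alternatives, 11 of which left out one library.

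*Il1a* (ENSMUSG00000027399, chr2:129299610-129309972, minus strand) encodes IL-1α, held in keratinocytes and active without cleavage. Its level was 23.8, 9.37 and 10.4 CPM in WT and 12.6, 21.1 and 9.25 CPM in KO, then 1.72, 2.56 and 1.62 CPM in WT+ZnO NPs and 11.7, 1.41 and 1.96 CPM in KO+ZnO NPs. The low libraries were again all of WT+ZnO NPs and replicates 2 and 3 of KO+ZnO NPs. It fell in WT+ZnO NPs against WT, with a log2 fold change of -2.88 ± 0.76 (adjusted p = 0.0112), while the value in KO+ZnO NPs against KO was -1.51 ± 0.71 (adjusted p = 0.168). Of its exon bases, 11.2% are shared with *Gm14023* on the opposite strand, and whether the counting used strand is not given in the sources used here.

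*Il18* (ENSMUSG00000039217, chr9:50554827-50581840, plus strand), stored in keratinocytes as a precursor that caspase-1 cleaves, followed the same libraries. It was at 47.5, 33.7 and 45.7 CPM in WT, 46.3, 46.7 and 34.5 CPM in KO, 9.24, 12.6 and 6.33 CPM in WT+ZnO NPs and 49.3, 12.4 and 15.9 CPM in KO+ZnO NPs. Its replicate 1 of KO+ZnO NPs was the highest of all 12 libraries. The log2 fold change in WT+ZnO NPs was -2.17 ± 0.47 (adjusted p = 0.00412) and that in KO+ZnO NPs against KO was -0.72 ± 0.45 (adjusted p = 0.293).

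With all libraries, edgeR called none of these 4 ligands in KO+ZnO NPs against KO, where *Il36g* alone passed an unadjusted p of 0.05 and DESeq2 on all libraries called *Il36g* alone (adjusted p = 0.00948). Of the 18822 genes tested by edgeR, 6140 passed that unadjusted threshold there. Without replicate 1 of KO+ZnO NPs, *Il36a* fell by 4.61, *Il36g* by 2.82, *Il1a* by 3.08 and *Il18* by 1.59 on the log2 scale, and all 4 were called (adjusted p = 0.0162, 0.0165, 0.0104 and 0.0115). The same 4 were called within the libraries without Y-linked transcripts, with log2 fold changes of -4.87, -2.99, -3.16 and -1.52 and adjusted p of 0.0184, 0.0207, 0.0139 and 0.0209. This comparison, of 2 libraries with 2, also leaves out replicate 1 of KO+ZnO NPs, so it is not independent of the fit before. With Y-linked transcripts as a covariate on all libraries, the values in KO+ZnO NPs against KO were -3.19, -2.20, -2.16 and -0.99, and none of the 4 was called (adjusted p = 0.123, 0.0504, 0.0648 and 0.0892). Replicate 1 of KO+ZnO NPs is 1 of the 2 libraries with Y-linked transcripts among KO and KO+ZnO NPs, so what is particular to this library and the sex of the mouse cannot be told apart. With the same covariate, the log2 fold changes of *Il36a*, *Il36g*, *Il1a* and *Il18* in WT+ZnO NPs against WT were -7.32, -4.70, -4.35 and -3.24, and all 4 calls held (adjusted p = 0.0154, 0.00714, 0.0119 and 0.00310). That covariate is estimated from the KO and KO+ZnO NPs libraries alone, replicate 1 of KO+ZnO NPs among them. It therefore cannot tell sex and treatment apart within WT skin.

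*Il36a*, *Il36g*, *Il1a* and *Il18* also varied together: over the 12 libraries, which share the group differences, Pearson's r between log2 CPM of any pair of them was between 0.90 and 0.95. *Il36b*, *Il36g*, *Il36a*, *Il36rn*, *Il1f10* and *Il1rn* lie within 198 kb of chromosome 2, whereas *Il1a* and *Il1b* lie together on 71.5 kb elsewhere on that chromosome and *Il18* is on chromosome 9. RefSeq promoter windows of GRCm38.p6, 250 bases before to 50 bases after the start of a gene, were used for 8 of the 10 members, all but *Il36a* and *Tslp*. The windows of *Il36g* (chr2:24186226-24186525, plus strand) and *Il1a* (chr2:129309923-129310222, minus strand) are shown because both genes fell in the same libraries while lying far apart on the chromosome. Capitals mark matches, on either strand, to TGANTCA (AP-1), TTCNNNGAA (STAT), TATAAA, AACCNGTT (grainyhead) and the NF-κB consensus.
Il36g: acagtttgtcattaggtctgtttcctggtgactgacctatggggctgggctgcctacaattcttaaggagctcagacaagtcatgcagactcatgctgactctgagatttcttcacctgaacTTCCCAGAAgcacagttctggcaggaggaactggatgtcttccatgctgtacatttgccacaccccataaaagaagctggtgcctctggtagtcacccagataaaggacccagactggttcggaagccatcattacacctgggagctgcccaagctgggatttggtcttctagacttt
Il1a: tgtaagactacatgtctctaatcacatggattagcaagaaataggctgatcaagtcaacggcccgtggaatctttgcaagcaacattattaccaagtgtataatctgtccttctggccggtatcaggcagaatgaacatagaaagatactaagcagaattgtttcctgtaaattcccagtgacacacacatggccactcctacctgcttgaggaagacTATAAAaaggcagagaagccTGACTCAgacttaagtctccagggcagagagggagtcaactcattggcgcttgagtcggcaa
The *Il36g* window held TTCNNNGAA from position -128, counted from the first base of the gene as 0, and no match to the other motifs. The *Il1a* window held TATAAA from -32 and TGANTCA from -12. Of 32851 promoter windows of this length in the table, 8.3% held the STAT letters, 7.81% the AP-1 letters and 13.6% the TATA letters, and a match describes only the letters of a window.

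Suprabasal keratinocyte markers were lower in WT+ZnO NPs than in WT. Of 7 suprabasal keratinocyte markers (*Krt1*, *Krt10*, *Lor*, *Flg*, *Ivl*, *Krtdap* and *Dsg1a*), 5 fell and 2 were not called in WT+ZnO NPs against WT. Their summed level was 5437 to 9163 CPM in WT, 9342 to 18520 in KO, 1336 to 1793 in WT+ZnO NPs and 2336 to 11040 in KO+ZnO NPs, and no marker was at 0 in any group. Replicate 1 of KO+ZnO NPs held the 11040. edgeR called 0 of the 7 in KO+ZnO NPs against KO, with 1 lower at an unadjusted p of 0.05, and DESeq2 called 0. In KO against WT the sum was higher without overlap, while edgeR called 0 of the markers, with 2 higher at an unadjusted p of 0.05, and DESeq2 called 1 higher. Set against this sum in each library, the log2 ratio of *Il36a* was -7.72 ± 0.33 in WT and -10.97 ± 1.41 in WT+ZnO NPs (SD, n = 3), a difference of -3.25, and that of *Il36g* was -7.35 ± 0.22 and -9.10 ± 0.47, a difference of -1.75. In both genes the ratios of the groups did not overlap. The ratio of *Il1a* differed by -0.51, also without overlap, and that of *Il18* by 0.01, with -7.38 ± 0.19 in WT and -7.37 ± 0.29 in WT+ZnO NPs. Relative to these markers, *Il36a* and *Il36g* were thus lower in WT+ZnO NPs, and for *Il18* the groups overlapped. In KO+ZnO NPs against KO the ratio of *Il36g* differed by -1.07 without overlap, and those of *Il36a*, *Il1a* and *Il18* overlapped. In KO against WT the ratio was lower without overlap for *Il36a* by a difference of -1.55, for *Il18* of -0.75 and for *Il1a* of -0.73. Against the sum of 6 basal keratinocyte markers, which was 4328 to 6099 CPM in WT and 6612 to 11160 CPM in WT+ZnO NPs, the ratios of *Il36a*, *Il36g*, *Il1a* and *Il18* differed by -6.05, -4.55, -3.31 and -2.79 between WT+ZnO NPs and WT, all without overlap. In KO+ZnO NPs against KO they differed by -3.31, -2.52, -2.35 and -1.29, without overlap for *Il36g* and *Il1a*. The overlap for *Il18* in the first of these comparisons and for *Il1a* in the second thus held for the suprabasal list and not for the basal one. The part of keratinocyte number or state in the falls was not tested.

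**Figure D4:**
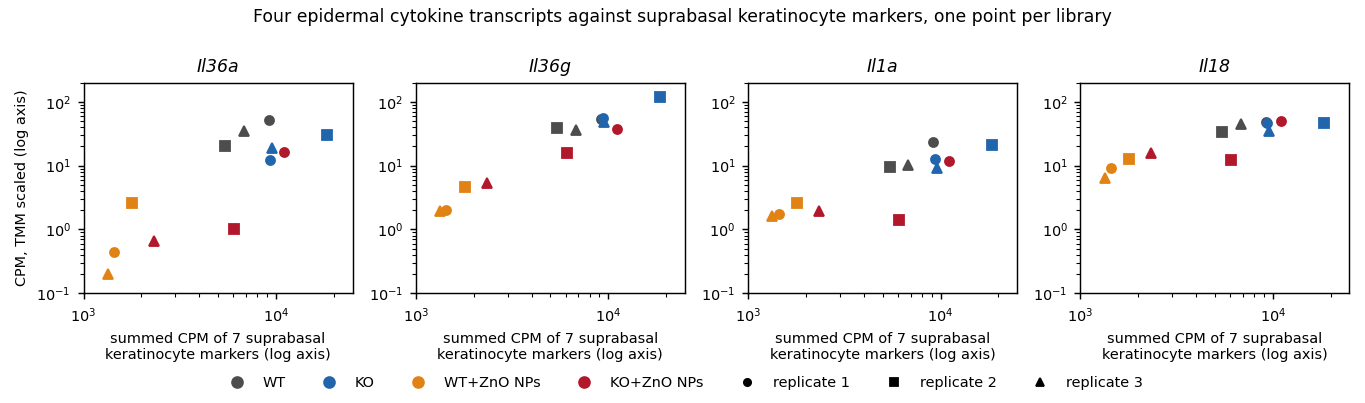
TMM-scaled CPM (log axis) of *Il36a*, *Il36g*, *Il1a* and *Il18* against the summed CPM of 7 suprabasal keratinocyte markers (log axis), with 1 point per library coloured by group and shaped by replicate. The WT+ZnO NPs libraries sit at the lower left at 1336 to 1793 CPM of markers, and KO+ZnO NPs replicate 2, at 6081 CPM of markers, lies below the WT libraries for all 4 genes.

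Antagonists of the family fell as well. *Il1rn* (ENSMUSG00000026981, chr2:24336853-24351494, plus strand) was at 58.7, 64.5 and 40.8 CPM in WT, 52.8, 112 and 66.7 CPM in KO, 18.6, 16.4 and 15.4 CPM in WT+ZnO NPs and 41.8, 45.2 and 23.0 CPM in KO+ZnO NPs. Neither treated group overlapped its vehicle group. The log2 fold change was -1.70 ± 0.32 in WT+ZnO NPs against WT (adjusted p = 0.00186) and -1.07 ± 0.31 in KO+ZnO NPs against KO (adjusted p = 0.0434), and the second call was lost in 12 of 22 alternatives, with an adjusted p up to 0.158. The ratio of *Il1rn* to the suprabasal sum differed by 0.53 and 0.08 in these comparisons, both with overlap, and that to the basal sum by -2.26 and -1.38, both without. *Il36rn*, which blocks the IL-36 receptor, was at 153.3, 102.3 and 125.2 CPM in WT and at 10.7, 24.8 and 15.7 CPM in WT+ZnO NPs, a fall of 2.90 ± 0.72 on the log2 scale (adjusted p = 0.00863). *Il36b*, the third IL-36 agonist, fell by 3.62 ± 0.82 (adjusted p = 0.00537), and *Il18bp*, the soluble trap of IL-18, by 1.61 ± 0.28 (adjusted p = 0.00123). In KO+ZnO NPs *Il36b* was at 57.8, 9.88 and 4.27 CPM and *Il36rn* at 165.5, 19.7 and 25.4 CPM, with replicate 1 again the high library. *Il18bp* also fell in KO against WT, by 1.22 ± 0.28 (adjusted p = 0.0262), a call lost in 6 of 22 alternatives. Of the 4 other family members in all, 3 fell in WT+ZnO NPs and 0 in KO+ZnO NPs against KO, and *Il1f10* was called in no comparison.

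*Il1b* (ENSMUSG00000027398, chr2:129364570-129371139, minus strand), the IL-1 of activated myeloid cells, had another pattern. Its level was 17.9, 30.3 and 20.8 CPM in WT and 17.3, 19.8 and 16.2 CPM in KO. It was 4.56, 29.9 and 2.37 CPM in WT+ZnO NPs and 1.40, 2.27 and 2.13 CPM in KO+ZnO NPs. Replicate 2 of WT+ZnO NPs was as high as the highest WT library, while all 3 KO+ZnO NPs libraries were low and lay apart from KO. *Il1b* fell in KO+ZnO NPs against KO by 3.20 ± 0.78 on the log2 scale (adjusted p = 0.0248), a call lost in 6 of 22 alternatives with an adjusted p up to 0.0789. These were the comparison within one Y-linked status and the fits without replicate 2 or 3 of KO or any one library of KO+ZnO NPs. In WT+ZnO NPs against WT the log2 fold change was -0.91 ± 0.71 (adjusted p = 0.319), and without replicate 2 of WT+ZnO NPs it was -2.73 ± 0.36 (adjusted p = 0.000521).

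General leukocyte and macrophage markers were lower in both treated groups. All 4 general leukocyte markers (*Ptprc*, *Coro1a*, *Laptm5* and *Cd53*) and all 6 macrophage and monocyte markers (*Adgre1*, *Cd68*, *Csf1r*, *Itgam*, *Mrc1* and *Ly6c2*) fell in WT+ZnO NPs against WT and in KO+ZnO NPs against KO. The macrophage sum was 1485 to 1837 CPM in WT, 694.9 to 1350 in KO, 68.8 to 141 in WT+ZnO NPs and 103.4 to 248.9 in KO+ZnO NPs, and the leukocyte sum 778 to 1049, 361.2 to 769, 59.7 to 127.3 and 137.6 to 163.5 CPM. No marker of either list was at 0 in a group. The 7 neutrophil markers (*Csf3r*, *Cxcr2*, *Ly6g*, *Retnlg*, *Mmp9*, *S100a8* and *S100a9*, with 6 tested) summed to 281 to 379.6, 558.8 to 1579, 13.2 to 107.6 and 139.3 to 443.6 CPM in this order of groups, and 3 fell in WT+ZnO NPs against WT and 2 in KO+ZnO NPs against KO. *Mmp9*, a protease that other cells also make, took much of the sum in KO, at 415.1 to 898.7 CPM against 29.9 to 59.9 CPM in WT, and without it the other 6 summed to 251.1 to 319.7, 143.7 to 680.4, 6.12 to 76.5 and 19.3 to 71.2 CPM. In WT+ZnO NPs the highest macrophage, leukocyte and neutrophil sums were those of replicate 2. The log2 ratio of *Il1b* to the macrophage sum differed by 2.52 between WT+ZnO NPs and WT, without overlap, and by -0.79 between KO+ZnO NPs and KO, with overlap. Its ratio to the leukocyte sum differed by -1.27 in the second comparison, without overlap. The ratio of *Tnf* to the macrophage sum differed by 3.51 in the first, without overlap, and by 1.07 in the second, with overlap. The 7 T cell markers (*Cd3e*, *Cd3g*, *Cd3d*, *Trac*, *Trdc*, *Cd4* and *Cd8a*) summed to 20.7 to 49.8 CPM in WT, 51.1 to 99.8 in KO, 18.6 to 26.6 in WT+ZnO NPs and 22.5 to 31.1 in KO+ZnO NPs, and edgeR called 2 lower in WT+ZnO NPs against WT, where the sums overlapped, and 5 lower in KO+ZnO NPs against KO. The 6 mast cell markers (*Cpa3*, *Cma1*, *Mcpt4*, *Tpsb2*, *Kit* and *Ms4a2*) summed to 194.8 to 372.9, 496 to 891.1, 63.0 to 143.4 and 104.6 to 805.9 CPM, with 3 lower and 1 higher in WT+ZnO NPs against WT. The mast cell sums overlapped in KO+ZnO NPs against KO, where edgeR and DESeq2 each called 0 of the 6, and 0 passed an unadjusted p of 0.05. The part of leukocyte number in the levels of *Il1b* and *Tnf* was not tested.

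*Tnf* (ENSMUSG00000024401, chr17:35199381-35202007, minus strand), made by macrophages, T cells and keratinocytes alike, was not called by edgeR with all libraries in these comparisons. It was at 10.03, 7.69 and 4.34 CPM in WT, 8.34, 12.7 and 7.75 CPM in KO, 5.84, 6.58 and 1.98 CPM in WT+ZnO NPs and 2.88, 4.44 and 4.09 CPM in KO+ZnO NPs. Only the last group lay apart from its vehicle group, with a log2 fold change of -1.33 ± 0.45 that missed the threshold in edgeR (adjusted p = 0.0670) and passed it in 3 of 22 alternatives, which were DESeq2 on all libraries and on only the groups compared and edgeR without replicate 3 of WT+ZnO NPs. For WT+ZnO NPs against WT the value was -0.62 ± 0.44 (adjusted p = 0.278).

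*Il6* (ENSMUSG00000025746, chr5:30013114-30019981, plus strand), which acts through STAT3 and calls up the acute phase, was the one member with a higher mean in both treated groups, and in each 1 library carried it. Its level was 0.629, 1.82 and 0.383 CPM in WT and 2.72, 2.09 and 1.01 CPM in KO. It was 1.24, 32.0 and 0.277 CPM in WT+ZnO NPs, from 31, 700 and 7 counts, and 0.349, 7.11 and 0.435 CPM in KO+ZnO NPs, from 8, 141 and 10 counts. Replicate 2 stood above every vehicle library in both groups, whereas replicates 1 and 3 of KO+ZnO NPs lay below every KO library, and of those of WT+ZnO NPs the first lay within the WT range and the third below it. The log2 fold change of WT+ZnO NPs against WT was 3.54 ± 1.61 (adjusted p = 0.0977) and turned to -0.33 ± 1.27 without replicate 2 of WT+ZnO NPs. That of KO+ZnO NPs against KO was 0.43 ± 1.48 (adjusted p = 0.868) and turned to -2.34 ± 1.70 without replicate 2 of KO+ZnO NPs.

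Some genes induced by these cytokines were high in the same WT+ZnO NPs library and others were low. The genes of this paragraph were picked from the pathway lists after their values had been seen. *Nfkbiz*, the IκBζ that NF-κB needs for a late set of targets, was at 77.6, 195.3 and 50.4 CPM in WT+ZnO NPs and at 43.2 to 65.2 CPM in WT. *Socs3*, the feedback inhibitor of IL-6 signalling, was at 134.9, 338.1 and 68.4 CPM in WT+ZnO NPs and at 32.9 to 140.4 CPM in WT. *Cxcl1*, a neutrophil attractant, stood at 6.68, 30.0 and 0.949 CPM and *Hbegf*, a growth factor of wounded epidermis, at 24.2, 93.8 and 13.2 CPM. None of these 4 genes was called in WT+ZnO NPs against WT (adjusted p = 0.0765 for *Nfkbiz*, 0.107 for *Socs3*, 0.230 for *Cxcl1* and 0.0646 for *Hbegf*). In all 4 genes replicate 2 was the highest of the 12 libraries, and in KO+ZnO NPs replicate 2, with the second highest *Il6*, they were at 60.7, 44.9, 1.76 and 31.6 CPM. Of 22 genes that keratinocytes induce under these cytokines, 8 lay above the WT range in replicate 2 of WT+ZnO NPs, 3 within it and 11 below it. Those below it included *Saa3* at 9.32 CPM, *Lcn2* at 12.8 CPM, against 110.8 to 284.2 CPM in WT, and *Krt6b* at 4.57 CPM. The promoter windows of *Il6* (chr5:30012864-30013163, plus strand) and *Il1b* (chr2:129371090-129371389, minus strand) are shown because both genes were high in that library, with capitals as above.
Il6: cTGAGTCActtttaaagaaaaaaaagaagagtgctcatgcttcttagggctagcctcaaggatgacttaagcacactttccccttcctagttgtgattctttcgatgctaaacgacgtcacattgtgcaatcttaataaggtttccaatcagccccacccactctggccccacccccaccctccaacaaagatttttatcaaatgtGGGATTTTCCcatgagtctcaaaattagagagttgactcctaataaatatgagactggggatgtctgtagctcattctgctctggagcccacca
Il1b: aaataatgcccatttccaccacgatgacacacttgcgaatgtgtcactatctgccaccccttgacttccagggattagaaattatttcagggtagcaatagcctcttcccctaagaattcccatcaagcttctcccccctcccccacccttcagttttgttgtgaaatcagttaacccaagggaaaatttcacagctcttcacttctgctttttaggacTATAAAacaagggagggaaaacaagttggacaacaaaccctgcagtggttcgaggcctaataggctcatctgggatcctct
The *Il6* window held a match to the NF-κB consensus, GGGATTTTCC, from position -44 and TGANTCA from -249, at the far edge of the window. The *Il1b* window held TATAAA from -31 and no match to the other letters. The NF-κB consensus was in 8.46% of all windows in the table and in 1 of the 8 members with a window.

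**Figure D5:**
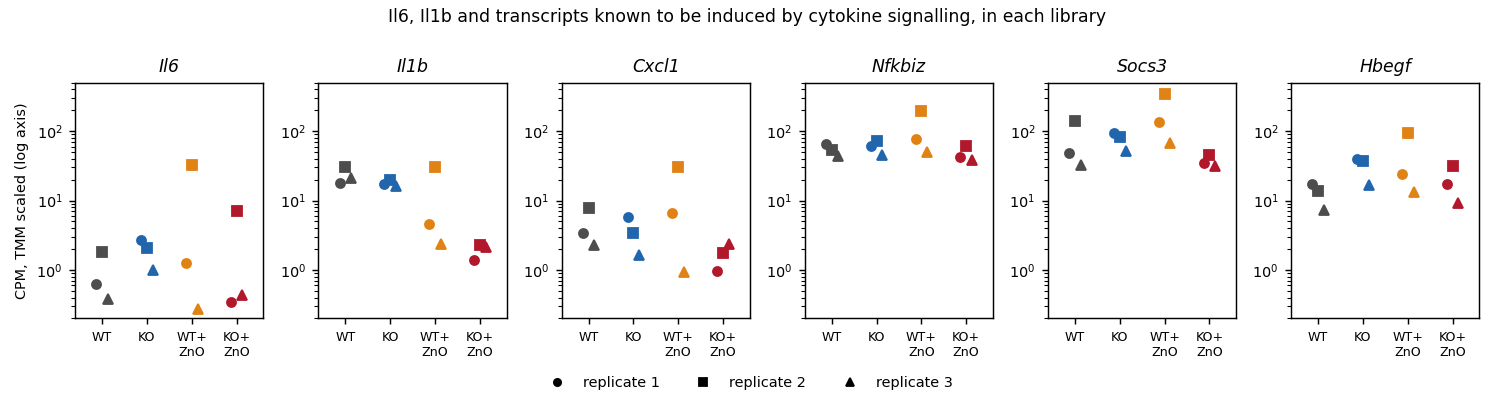
TMM-scaled CPM (log axis) of *Il6*, *Il1b*, *Cxcl1*, *Nfkbiz*, *Socs3* and *Hbegf* in each library by group; WT+ZnO and KO+ZnO stand for the groups labelled WT+ZnO NPs and KO+ZnO NPs. Replicate 2 of WT+ZnO NPs is the highest library for all genes shown but *Il1b*, for which WT replicate 2 is at 30.3 and it at 29.9 CPM.

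Of the type 2 alarmins, edgeR called *Il33* and not *Tslp*. *Il33* (ENSMUSG00000024810, chr19:29925114-29960718, plus strand), a nuclear alarmin of epithelium and stroma, was at 21.9, 55.2 and 40.1 CPM in WT, 44.2, 87.0 and 35.0 CPM in KO, 17.3, 10.01 and 9.10 CPM in WT+ZnO NPs and 12.4, 18.9 and 16.7 CPM in KO+ZnO NPs. Both treated groups lay below their vehicle groups. The fall was 1.69 ± 0.42 on the log2 scale in WT+ZnO NPs (adjusted p = 0.00842) and 1.79 ± 0.42 in KO+ZnO NPs (adjusted p = 0.0213), where the call was lost in 3 of 22 alternatives, with an adjusted p of 0.0762 without KO replicate 2. With Y-linked transcripts as a covariate, *Il33* in WT+ZnO NPs against WT had a log2 fold change of -1.19 ± 0.58 and was no longer called (adjusted p = 0.165). Relative to the suprabasal keratinocyte sum, the log2 ratio of *Il33* differed by 0.57 in WT+ZnO NPs against WT and -0.56 in KO+ZnO NPs against KO, both with overlap, and relative to the basal sum by -2.23 and -2.01, both without. All 4 endothelial markers (*Pecam1*, *Cdh5*, *Vwf* and *Kdr*) fell in WT+ZnO NPs against WT, from a sum of 558.7 to 577 CPM to 97.3 to 219 CPM. Of 6 dermal fibroblast markers 2 fell there, *Pdgfra* by 2.16 and *Dcn* by 2.02 on the log2 scale, and *Col1a1* rose by 1.69 (adjusted p = 0.00138, 0.00286 and 0.0394), with sums of 7049 to 13900 CPM in WT and 7678 to 33420 CPM in WT+ZnO NPs. The *Col1a1* groups overlapped, at 996 to 2876 CPM in WT and 2765, 13290 and 3604 CPM in WT+ZnO NPs, where replicate 2 stood out. Of the 6, edgeR called *Pdgfra* alone in KO+ZnO NPs against KO, where it fell by 1.28 (adjusted p = 0.0439) and DESeq2 called 2 lower, and edgeR and DESeq2 each called 0 of the endothelial markers, with 0 at an unadjusted p of 0.05. The part of these cells in the fall of *Il33* was not tested. *Il1rl1*, the receptor of IL-33, fell by 3.84 ± 0.60 (adjusted p = 0.000680) and 2.95 ± 0.58 (adjusted p = 0.0123) in these comparisons.

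*Tslp* (ENSMUSG00000024379, chr18:32815383-32819797, plus strand), the keratinocyte alarmin of atopic skin, was at 0.797, 3.12 and 3.19 CPM in WT and 4.55, 9.52 and 2.82 CPM in KO. In WT+ZnO NPs it was at 1.2, 0.503 and 0.870 CPM and in KO+ZnO NPs at 1.18, 4.38 and 1.00 CPM. The groups overlapped in every comparison. Its log2 fold change of 1.25 ± 0.69 in KO against WT (adjusted p = 0.288) was the highest of the 10 members there, and no alternative called it. Of the receptor chains it binds, *Crlf2* fell from 34.9 to 41.8 CPM in WT to 9.44 to 15.4 CPM in WT+ZnO NPs (log2 fold change -1.68 ± 0.26, adjusted p = 0.000682), and *Il7r* rose in KO against WT by 2.16 ± 0.53 (adjusted p = 0.0347), from 12.9 to 20.4 CPM to 25.9 to 104.7 CPM, a call lost in 6 of 22 alternatives. The T cell markers *Trac* (log2 fold change 1.81, adjusted p = 0.0457) and *Cd4* (2.28, adjusted p = 0.0433) were called higher there too, as 2 of 7, and the sum of 5 dendritic and Langerhans cell markers, with 2 called higher, was 810.1 to 1405 CPM in WT and 1832 to 2690 CPM in KO. No marker of these lists was at 0 in a group, and the part of these cells in the level of *Il7r* was not tested.

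The rest of the pathway is given by lists of genes with known roles. With the other family members above, these lists held 107 genes tested. Calls in KO against WT were 7.48% of them, beside 8.18% of all genes tested. For WT+ZnO NPs against WT it was 54.2%, 55 genes lower and 3 higher, beside 43% of all genes, 22.1% lower and 20.8% higher. For KO+ZnO NPs against KO it was 18.7%, all 20 lower, beside 14.7%, 8.09% lower and 6.57% higher. For KO+ZnO NPs against WT+ZnO NPs it was 8.41% beside 3.28%. Of 14 receptor genes, 3 rose and 0 fell in KO against WT (*Il18r1* by 2.17 ± 0.32, adjusted p = 0.00407, *Il7r* and *Il1rap* by 0.93 ± 0.18, adjusted p = 0.0125). In WT+ZnO NPs against WT 10 of the 14 fell and 0 rose, with a median log2 fold change of -1.55. *Tnfrsf1b*, a receptor of TNF, fell by 3.17 ± 0.37 (adjusted p = 0.000123) and *Il6ra*, the receptor of IL-6, by 2.20 ± 0.24 (adjusted p = 8.59e-05). In KO+ZnO NPs against KO 6 fell, among them *Tnfrsf1b* by 2.19 ± 0.35 (adjusted p = 0.00758), with a median of -0.61.

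Of 18 genes for the processing and release of these cytokines, 11 fell in WT+ZnO NPs against WT, 5 in KO+ZnO NPs against KO and 1 in KO against WT, and 0 rose. *Casp8*, which cleaves IL-1β beside its role in cell death, fell by 0.65 ± 0.11 in KO (adjusted p = 0.00705). *Ctss*, a cathepsin of antigen-presenting cells that can activate IL-36γ, fell by 3.91 ± 0.55 in WT+ZnO NPs (adjusted p = 0.000369) and by 2.19 ± 0.51 in KO+ZnO NPs (adjusted p = 0.0217). *Nlrc4*, an inflammasome sensor, fell by 3.55 ± 0.44 (adjusted p = 0.000163) and 3.13 ± 0.44 (adjusted p = 0.00556) in the same comparisons. All 4 leukocyte and all 6 macrophage and monocyte markers fell in these comparisons too, such as *Cd53* by 4.02 and *Adgre1* by 5.06 on the log2 scale in WT+ZnO NPs, and the part of leukocyte number in the falls of the receptor and processing genes was not tested.

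Of 31 signalling genes, 15 fell and 1 rose in WT+ZnO NPs against WT, with a median of -0.42, and 4 fell in KO+ZnO NPs against KO, with a median of -0.25. *Irak3*, an inhibitor of the IL-1 receptor complex, fell by 0.70 ± 0.17 in KO (adjusted p = 0.0348), a call lost in 7 of 22 alternatives, and by 1.77 ± 0.18 in WT+ZnO NPs (adjusted p = 5.53e-05). *Nfkbie*, an inhibitor of NF-κB, fell by 1.51 ± 0.33 in WT+ZnO NPs (adjusted p = 0.00440) and by 1.89 ± 0.33 in KO+ZnO NPs (adjusted p = 0.00909).

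Among 22 genes that keratinocytes induce under these cytokines, 21 were tested, and 9 fell and 1 rose in WT+ZnO NPs against WT, while 0 were called in KO+ZnO NPs against KO. In that comparison 8 were lower at an unadjusted p of 0.05 and 0 higher, where 6140 of the 18822 genes tested passed in either direction. DESeq2 on all libraries called 5 lower, and DESeq2 on only these groups and the fit with the replicate number as a block called 6 lower each. *Krt6b*, a keratin of wounded epidermis, was at 64.5, 330.2 and 235.7 CPM in WT and 4.68, 4.57 and 1.46 CPM in WT+ZnO NPs (log2 fold change -5.88 ± 1.38, adjusted p = 0.00643). *Saa3*, an acute phase protein, fell by 4.68 ± 1.15 (adjusted p = 0.00818), from 84.3 to 314.5 CPM to 3.56 to 9.32 CPM. *Cxcl5*, a neutrophil attractant, was at 2.01, 29.5 and 3.27 CPM in WT and had counts in 1 library of WT+ZnO NPs alone, at 0.183 CPM (adjusted p = 0.00584). *Krt17*, another such keratin that is also made in the hair follicle, went the other way, with a rise of 2.04 ± 0.32 (adjusted p = 0.000735) in WT+ZnO NPs and of 1.84 ± 0.32 (adjusted p = 0.00896) in KO. The 8 hair follicle markers (*Krt25*, *Krt27*, *Krt71*, *Lhx2*, *Shh*, *Lgr5*, *Krt33a* and *Krt35*) summed to 7.90 to 18.7 CPM in WT, 35.6 to 7480 in KO, 924.3 to 4252 in WT+ZnO NPs and 233.0 to 5644 in KO+ZnO NPs, with no marker at 0 in a group, and 8 rose in WT+ZnO NPs against WT and 6 in KO against WT. The part of the hair follicle in these values was not tested.

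Of 31 other skin cytokines, 19 were tested, and 7 fell and 1 rose in WT+ZnO NPs against WT and 5 fell in KO+ZnO NPs against KO. *Csf1*, the growth factor of macrophages, had log2 fold changes of -2.20 ± 0.24 (adjusted p = 8.65e-05) and -1.47 ± 0.24 (adjusted p = 0.00755). *Tnfsf10*, which encodes TRAIL, had -2.28 ± 0.34 (adjusted p = 0.000519) and -1.81 ± 0.34 (adjusted p = 0.0108). *Il10*, which restrains macrophages, fell in WT+ZnO NPs by 3.03 ± 0.92 (adjusted p = 0.0221), a call lost in 4 of 20 alternatives. *Il23a*, the specific subunit of IL-23, rose in KO against WT by 2.57 ± 0.66 (adjusted p = 0.0403), from 0.105 to 0.839 CPM to 1.91 to 3.05 CPM, and the call was lost in 9 of 21 alternatives.

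Between KO+ZnO NPs and WT+ZnO NPs, 4 of the 14 receptor genes rose and 0 fell. That count was 0 with Y-linked transcripts as a covariate, within libraries of one Y-linked status, with edgeR on only these groups, and without WT+ZnO NPs replicate 3 or KO+ZnO NPs replicate 1, and it was 1 to 5 in the other alternatives. All 3 WT+ZnO NPs libraries but 1 of the 3 KO+ZnO NPs libraries hold Y-linked transcripts. *Il18r1*, the receptor of IL-18, was at 20.6, 22.9 and 15.2 CPM in KO+ZnO NPs and at 6.28, 5.39 and 3.16 CPM in WT+ZnO NPs, a rise of 1.98 ± 0.32 (adjusted p = 0.0277) that was lost in 5 of 22 alternatives. Of the processing genes *Casp8* rose and *Nlrp1b* fell, calls lost in 19 and 12 of 22 alternatives. Of the signalling genes *Irak3* and *Jak1* rose, calls lost in 14 and 16 of 22. Of the other cytokines *Il34*, a ligand of the macrophage growth factor receptor that keratinocytes make, rose by 1.01 ± 0.19 (adjusted p = 0.0343), a call lost in 11 of 22 alternatives.

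Whether ZnO NPs acted differently in the 2 genotypes, by their labels, was tested by the interaction. Of the 10 members 0 were called, where 5.08% of all genes were called higher and 3.59% lower, 8.68% in all, and DESeq2 called 0 as well, where it called 17.1% of all genes. In edgeR's test 3 passed an unadjusted threshold of 0.05, where 5154 of the 18822 genes tested did. They were *Il36g*, with a difference of log2 fold changes of 2.0 ± 0.87, *Il18* with 1.46 ± 0.64 and *Il1b* with -2.29 ± 1.02, and their adjusted p were 0.166, 0.168 and 0.176. Without replicate 1 of KO+ZnO NPs, *Il36g* was at 1.10 and *Il18* at 0.59, and without replicate 2 of WT+ZnO NPs *Il1b* was at -0.47.

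By the likeness of their log2 CPM over the 12 libraries, among the 15928 tested genes whose mean level reached 1 CPM, each member had its own neighbours. These correlations describe libraries that share the group differences, and they are given without a test. Nearest to *Il36g* were *Aadacl2*, *Sdcbp2* and *Lipn* (r = 0.991 to 0.985), nearest to *Il1a* were *Lipk*, *Kcnk6* and *Klk9* (r = 0.985 to 0.983), and nearest to *Il36a* were *Spink7*, *Alox12b* and *Asah2* (r = 0.978 to 0.971). *Il18* was nearest to *Rnf103*, *Cysrt1* and *Asprv1* (r = 0.973 to 0.972) and *Il1rn* to *Tmem165*, *Stx11* and *Smpdl3a* (r = 0.973 to 0.971). *Lipn*, *Lipk*, *Alox12b*, *Klk9* and *Asprv1* are known from the granular layer of the epidermis. For *Il1b* the nearest were the chemokines *Ccl7*, *Ccl4* and *Cxcl2* (r = 0.954 to 0.931), for *Tnf* *Tnfaip2*, *Zc3h12a* and *Trim36* (r = 0.930 to 0.892), and for *Il6* *Crem*, *Gm17024* and *Csrnp1* (r = 0.907 to 0.899). *Il33* was nearest to *Ang*, *Hlx* and *Ccdc149* (r = 0.962 to 0.940) and *Tslp* to *Slc22a18*, *Ankrd42* and *Spp1* (r = 0.924 to 0.882). *Il6* had r between -0.21 and 0.41 with each of the other 9 members.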

How the data were processed

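RNA-seq of whole mouse skin was deposited by the authors as raw counts, 1 whole number for each gene in each of 12 libraries, with no normalization applied. The study's methods name STAR and HTSeq and an NEBNext kit after poly-T selection, whereas the submitters' processing notes name HISAT2 2.0.5 and build mm10 and the labels a TruSeq kit; strand use, the annotation release and which of these made the table are not given in the sources used here. Groups and replicate numbers came from the sample labels. Names, positions and exon lengths were taken from GENCODE release M21 on GRCm38, with *Il36a*, *Il36g*, *Il36b* and *Il36rn* listed there as *Il1f6*, *Il1f9*, *Il1f8* and *Il1f5*. The table held 52636 genes, 0 entries that name no gene and totals of 21076320 to 28867802 counts. Libraries of the same group differed beyond sampling noise, with a chi-square per degree of freedom between 40.8 and 178, and all 12 were kept. The study's methods call them biological replicates.

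The deposited counts were tested in R 4.3.3 with edgeR 4.0.16 (quasi-likelihood F test), using TMM factors, edgeR's filter on low counts (18822 genes tested), 1 coefficient per group in one fit of 12 libraries, and Benjamini-Hochberg adjustment over all genes tested. A call is an adjusted p below 0.05. Standard errors were derived from the fold change and the F statistic and are approximate. Log2 ratios to marker sums used a pseudocount of 0.1 CPM. The alternatives changed the scaling (RLE factors or library size alone), the tool (DESeq2 1.42.0 on every library or those compared, or edgeR restricted to the compared pair), the filter (none, or 10 counts or more throughout) and the model (a block for the replicate number, a covariate for Y-linked transcripts, or libraries of one Y-linked status alone), or left out each library in turn. Only the main edgeR test was run on simulated data, with large fold changes and the same spread for all genes. The ratios and the alternatives were not simulated.

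The members and lists were chosen with earlier results of these data known. Genes named are the 10 members, up to 3 called genes with the largest rise and 3 with the largest fall per list and comparison at a mean of at least 1 CPM, list genes named for their role beside a member, and the 3 genes nearest each member. Promoter windows and their sequences are RefSeq's, on GRCm38.p6.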

Additional observations from a re-analysis of the deposited data

Results flagged for a closer look

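In the interaction, the change with ZnO NPs differed between the genotypes, by their labels, for 8 of the 107 pathway genes tested. That is 7.48% beside 8.68% of all genes tested. None of the 10 cytokines and alarmins was called, which does not show that their effects were alike. In edgeR's quasi-likelihood test, 7 of the 8 had a higher fold change in KO+ZnO NPs against KO than in WT+ZnO NPs against WT. The difference of log2 fold changes was 1.69 ± 0.33 for the receptor *Il6ra* (adjusted p = 0.0164), 1.61 ± 0.29 for the decoy receptor *Il1r2* (adjusted p = 0.0122), 1.12 ± 0.15 for *Casp8* (adjusted p = 0.00466) and 1.52 ± 0.25 for *Irak3* (adjusted p = 0.00908). It was 1.17 ± 0.33 for *Stat5a* (adjusted p = 0.0499), 1.01 ± 0.25 for *Jak1* (adjusted p = 0.0326) and 1.84 ± 0.46 for the cytokine *Il7* (adjusted p = 0.0345). *Krt17* went the other way, at -1.94 ± 0.44 (adjusted p = 0.0275). The decoy *Il1r2*, which binds IL-1 without a signal, was at 56.2 to 65.7 CPM in WT, 28.8 to 41.9 in KO, 18.6 to 28.8 in WT+ZnO NPs and 36.9 to 50.7 in KO+ZnO NPs. *Il1r2*, *Casp8* and *Irak3* kept the call in 19 of 19 alternatives and *Il6ra* in 18 of 19, while *Krt17* kept it in 14, *Jak1* in 12, *Il7* in 10 and *Stat5a* in 5. Every WT+ZnO NPs library had Y-linked transcripts and low *Cdc42*, while no WT library had the first. Sex and treatment thus cannot be told apart in the interaction, and the covariate is estimated from the KO and KO+ZnO NPs libraries alone. The low *Cdc42* went against the label WT+ZnO NPs, so genotype here is by label alone.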

How the results depend on the processing

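Over 22 alternatives at most, the 10 members kept their direction and their side of the threshold in 952 results, gained a call in 24, lost one in 37 and turned direction in 34, and no turned value was called. The number of members called stayed at 0 for KO against WT and for the interaction in all alternatives, and for WT+ZnO NPs against WT at 6 to 7 when a library was left out and 5 to 7 otherwise. For KO+ZnO NPs against KO it was 5 with DESeq2 on all or on only the compared libraries and within one Y-linked status, 1 with edgeR on only the groups compared, and 0 to 5 when a library was left out (0 without KO replicate 2, 5 without KO+ZnO NPs replicate 1). For KO+ZnO NPs against WT+ZnO NPs it was 0 with RLE factors, edgeR on only the groups compared, the Y covariate and within one Y-linked status, 4 and 3 with DESeq2 on all and on only the compared libraries, and 0 to 2 when a library was left out (2 without KO+ZnO NPs replicate 3, 0 without any other). The replicate numbers did not pair the samples (4 of 18 same-numbered pairs had correlated deviations over 0.1, range -0.34 to 0.43). With the replicate block 0, 6, 4, 1 and 0 members and 1239, 8079, 2598, 626 and 1429 genes of all were called in KO against WT, WT+ZnO NPs against WT, KO+ZnO NPs against KO, KO+ZnO NPs against WT+ZnO NPs and the interaction. Without the block they were 1540, 8085, 2759, 618 and 1633. Counts of all genes that moved by over 1.5 times were, for KO against WT, 3082 and 4634 with DESeq2 on all and on only the compared libraries, 2547 with edgeR on only the groups compared, 962 with the Y covariate and 647 within one Y-linked status, and for WT+ZnO NPs against WT 3896 with the Y covariate. They were 4383 with DESeq2 on all libraries and 514 with edgeR on only the groups compared for KO+ZnO NPs against KO, and 3217 with DESeq2, 1086 without a filter and 125 with the Y covariate for the interaction. For KO+ZnO NPs against WT+ZnO NPs they were 2451 with DESeq2 on all libraries, 284 without a filter, 1 with the Y covariate, 11 within one Y-linked status and 0 with edgeR on only the groups compared, where 3176 genes passed an unadjusted threshold of 0.05 and DESeq2 called 896. Leaving out a library gave 383 to 2044, 5959 to 8811, 499 to 3196, 1 to 1717 and 469 to 1683 in the same order, with the lowest values without WT replicate 2, WT+ZnO NPs replicate 3, KO replicate 2, WT+ZnO NPs replicate 3 and WT replicate 2. Library size only moved the median of all genes to 0.16 in WT+ZnO NPs against WT, -0.11 in KO+ZnO NPs against WT+ZnO NPs and -0.13 in the interaction, and the share of higher calls from 64.7% to 33.3% and from 58.6% to 39.7% in the last 2. Directions that turned, as log2 fold changes, were as follows. In KO against WT, *Il1a* was at 0.13 with the replicate block, 0.07 within one Y-linked status and -0.40 to 0.54 when a library was left out, and *Il18* at -0.01 with RLE factors, DESeq2 on all libraries and the replicate block, -0.30 with the Y covariate, -0.06 within one Y-linked status and -0.13 to 0.14 when a library was left out. *Il6* ranged from -0.33 to 4.45 in WT+ZnO NPs against WT, -2.34 to 0.95 in KO+ZnO NPs against KO (-1.10 with the replicate block), -4.87 to 1.78 in KO+ZnO NPs against WT+ZnO NPs and -5.89 to 0.76 in the interaction when a library was left out. Without KO+ZnO NPs replicate 1, *Il1a* and *Il36a* in KO+ZnO NPs against WT+ZnO NPs were at -0.22 and -0.34, with highest values of 1.77 and 4.23 when another library was left out, and *Il1a* in the interaction was at -0.20 (highest 1.78). In the interaction *Il33* ranged from -0.44 to 0.35 and *Tslp* from -0.94 to 0.67 when a library was left out, and *Tslp* was at -0.10 with library size only, -0.20 with the replicate block and -0.76 with the Y covariate. The cause was not tested. The low counts behind *Il36a* (5 to 56) and *Il6* (7 to 31 without replicate 2) in WT+ZnO NPs limit the precision of their folds.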
